A study of Arabidopsis thaliana with 6 samples.

Results

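Cytochrome P450 genes were compared between rosette leaves of an m6A-deficient Arabidopsis thaliana line, A6, and wild type. The genes were taken by name: every probe set that the platform annotation pairs with a single gene whose symbol is CYP, a number of 2 or 3 digits and a subfamily letter. This gave 23 genes, each with 1 probe set on the Affymetrix ATH1 array. The annotation pairs 13356 genes in all with a single-gene probe set. It lists no gene for 8730 of the 22746 non-control probe sets. Below, a gene counts as measured when it has such a pairing, so genes not measured may still have probe sets on the array. RefSeq symbols gave the same number of members, 23, and RefSeq lists 236 genes with such a symbol, so most P450 genes are not analysed here. Of the 23, 19 belong to the subfamily CYP71B, for which RefSeq lists 36 genes, and 1 each to CYP51G, CYP78A, CYP79A and CYP84A. The comparison between subfamilies is therefore one of CYP71B with 4 single genes.

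The arrays were hybridised with RNA of 3 A6 samples and 3 wild-type samples, which the labels call biological replicates. A6 is known as an mta mutant that carries the mRNA methyltransferase gene under the ABI3 promoter, which is active in the embryo. It is the only mutant line here, so effects of low methylation and of other features of the line cannot be told apart, and methylation itself was not measured. Both lines grew at 20 °C on a cycle of 20 h light and 4 h dark, and their leaves 3 to 6 were harvested at an age of 3 weeks. The question is which transcripts change in leaves of a plant with little m6A.

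P450 enzymes are haem monooxygenases that insert 1 atom of oxygen into a substrate. Most plant members sit in the membrane of the endoplasmic reticulum and receive electrons from an NADPH-dependent reductase. They are named by family (the number) and subfamily (the letter), both set by sequence similarity. CYP71B belongs to the large plant-specific group of families that makes defence compounds and other specialised metabolites, and it includes PAD3, the last enzyme of the synthesis of the phytoalexin camalexin. Many CYP71B genes lie side by side in the genome as tandem copies, and for most of them no substrate is established.

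All values are log2 units that were centred on each probe set's median over the 6 arrays. They give differences between arrays and no absolute levels, so whether a gene is expressed at all in leaves could not be judged, and the labelled tissue could not be checked against marker levels. Differences are the mean in A6 minus the mean in wild type on this log2 scale, given with a standard error (SE), and a gene was called when its limma p-value, adjusted over 22746 probe sets, was under 0.05. In whole leaves, fewer cells with a transcript and less of it per cell cannot be told apart. Array medians lay between -0.01 and 0.01 in A6 and between -0.004 and 0.02 in wild type. The 25S rRNA control probe set was at 0.51 to 0.83 in A6 and at -1.06 to -0.51 in wild type. The 3' minus 5' difference of the actin and GAPDH control probe sets, a sign of RNA quality, was -0.04 to 0.03 in A6 and 0.03 to 0.11 in wild type. With the ubiquitin pairs averaged in, it was -0.03 to -0.02 in A6 and 0.02 to 0.09 in wild type, without overlap. Its part in the differences below was not tested. With 6 arrays, a covariate that differs this far between the lines cannot be well separated from line. Fits with each of these 2 measures as a covariate are given beside the called genes whose call or size they changed, and together for the genes that did not pass.

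Of the 23 genes, 3 rose (CYP71B23, CYP71B36 and CYP71B24), 3 fell (CYP71B22, CYP78A9 and CYP71B34) and 17 did not pass. The called share was 26.1% of the members, against 9.77% of all probe sets tested (5.03% higher in A6 and 4.74% lower). A difference of at least 2-fold was seen in 4 members (17.4%) and in 2.94% of all probe sets. The median difference was -0.02 over the members and -0.02 over all probe sets. The 3 A6 values lay apart from the 3 wild-type values in 7 members (30.4%), against 29% of all probe sets. The called share lay above the background with all 6 arrays, while the share with lines apart lay close to it. Without A6 replicate 1 the counts were 1 rise and 2 falls (background 3.37%). With the actin and GAPDH covariate they were likewise 1 and 2 (background 2.16%), and with ubiquitin added 0 and 2 (background 1.27%).

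**Figure D1:**
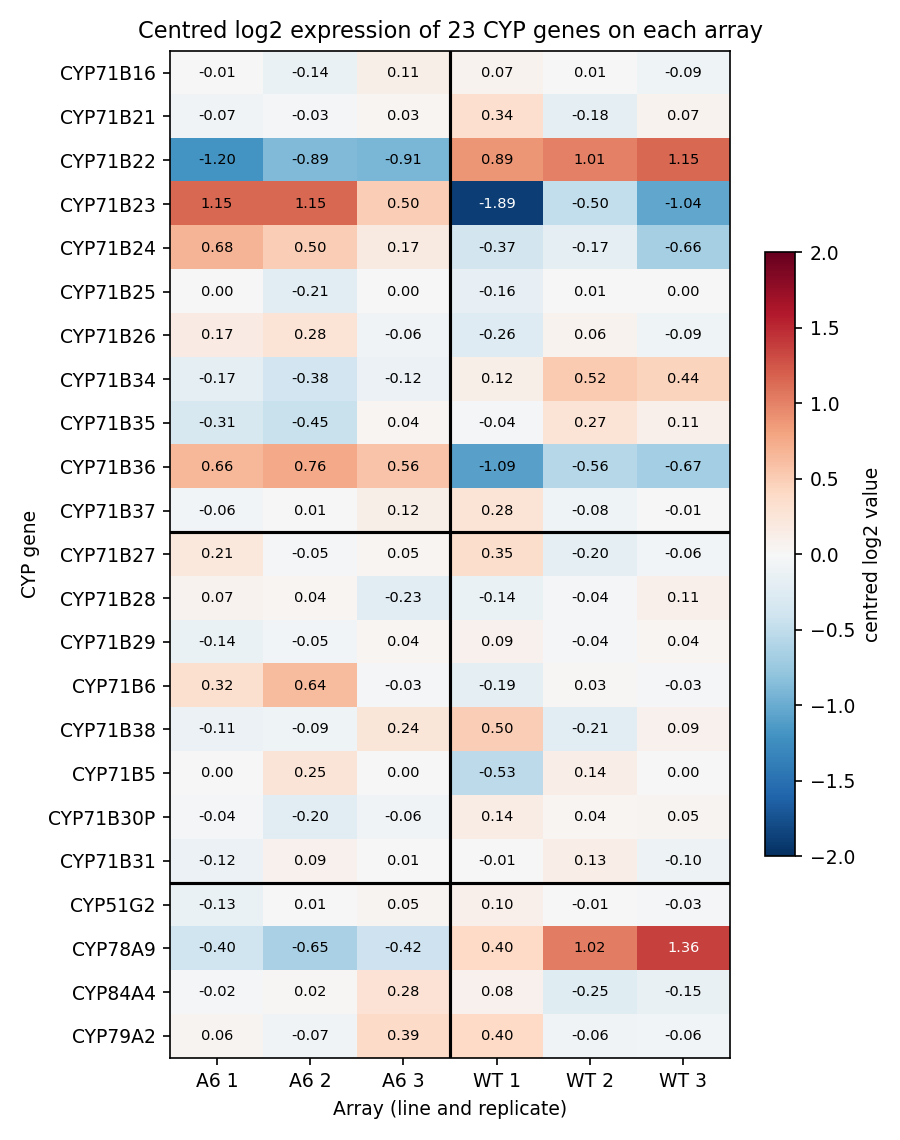
Centred log2 value of each of the 23 CYP genes (rows) on each array (columns, A6 left of the black line and wild type right of it). The upper block holds the 11 CYP71B genes of the chromosome 3 run in gene order, the middle block the 8 other CYP71B genes and the lower block the 4 genes of other subfamilies; strong colours are confined to a few rows, among them CYP71B22 and CYP71B23.

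CYP71B23 (AT3G26210) had the largest rise of the 23. Its centred log2 values were 1.15, 1.15 and 0.50 in A6 replicates 1 to 3, against -1.89, -0.50 and -1.04 in wild-type replicates 1 to 3. All A6 values lay above all wild-type values, and the spread within A6 (SD 0.38, n = 3) was smaller than within wild type (SD 0.70, n = 3). The difference of 2.07 (SE 0.34, 95% interval 1.30 to 2.85, limma adjusted p = 0.00927) is a 4.21-fold rise. Its adjusted p was 0.0511 without A6 replicate 1. With the actin and GAPDH covariate the difference was 1.75 (adjusted p = 0.127), and with ubiquitin added to that covariate 0.86 (adjusted p = 0.351).

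CYP71B22 (AT3G26200), the gene next to CYP71B23, fell by nearly the same amount. It had -1.20, -0.89 and -0.91 in A6, against 0.89, 1.01 and 1.15 in wild type. The lines were far apart, and the replicates of each were close together (SD 0.17 in A6 and 0.13 in wild type, n = 3 each). The difference was -2.01 (SE 0.12, 95% interval -2.30 to -1.73, adjusted p = 0.000325), so the level in A6 was 4.04-fold lower. It passed in every alternative fit that was run, with differences of -2.80 to -1.92. The -2.80 came from a second quantile normalization, which acted on the centred values and so also changed the spread of each array. The difference was -2.18 with the actin and GAPDH covariate (adjusted p = 0.00506) and -2.19 with ubiquitin added (adjusted p = 0.0196).

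Within each array, the value of CYP71B23 minus that of CYP71B22 was 2.35, 2.04 and 1.41 in A6, against -2.78, -1.50 and -2.19 in wild type. Because both values come from the same array, a shift of the whole array cancels in this difference. Its sign follows from the 2 calls above, so it adds only the size on each array. The next member in gene order, CYP71B24, also rose, and the one before, CYP71B21, had a difference of only -0.10 (SE 0.14).

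CYP71B36 (AT3G26320) rose 2.70-fold. It had 0.66, 0.76 and 0.56 in A6, against -1.09, -0.56 and -0.67 in wild type. A6 replicates were the more alike (SD 0.10, against 0.28 in wild type), and the lines did not overlap. The difference was 1.44 (SE 0.15, 95% interval 1.09 to 1.78, adjusted p = 0.00174). It passed whichever array was left out. The difference was 1.25 with the actin and GAPDH covariate (adjusted p = 0.0358) and 0.94 with ubiquitin added (adjusted p = 0.0803).

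CYP71B24 (AT3G26230) rose 1.80-fold, with 0.68, 0.50 and 0.17 in A6, against -0.37, -0.17 and -0.66 in wild type. The lines were apart, though A6 replicate 3 lay nearer to wild-type replicate 2 than to A6 replicate 1. The difference was 0.85 (SE 0.17, 95% interval 0.46 to 1.24, adjusted p = 0.0196). The adjusted p was 0.0852 without A6 replicate 1 and 0.0751 without A6 replicate 2, and it was 0.0595 once wild-type replicate 3 was left out. With the covariate the difference was 1.001 (adjusted p = 0.0956), and with ubiquitin added 0.83 (adjusted p = 0.246).

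CYP71B34 (AT3G26300) fell, with -0.17, -0.38 and -0.12 in A6, against 0.12, 0.52 and 0.44 in wild type. The lines were apart by the narrow gap between A6 replicate 3 and wild-type replicate 1. The difference was -0.58 (SE 0.14, 95% interval -0.90 to -0.27, adjusted p = 0.0357), so the level in A6 was 1.498-fold lower. Of the 6 calls this one was lost in the most fits: it passed without wild-type replicate 1 and was lost without any other single array (adjusted p 0.0628 to 0.124). With the covariate the difference was -0.81 (adjusted p = 0.0675), and with ubiquitin added -1.03 (adjusted p = 0.0607).

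CYP78A9 (AT3G61880), whose subfamily promotes organ growth and which is itself known for its effect on fruit and seed size, was the only called gene outside CYP71B. It had -0.40, -0.65 and -0.42 in A6, against 0.40, 1.02 and 1.36 in wild type. The difference was -1.42 (SE 0.23, 95% interval -1.94 to -0.90, adjusted p = 0.00851), a level 2.67-fold lower in A6. A6 replicates were the less spread (SD 0.14, against 0.49 in wild type). The gene passed in every alternative fit run. Its difference was -1.75 with the actin and GAPDH covariate (adjusted p = 0.0386) and -2.17 with ubiquitin added (adjusted p = 0.036).

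**Figure D2:**
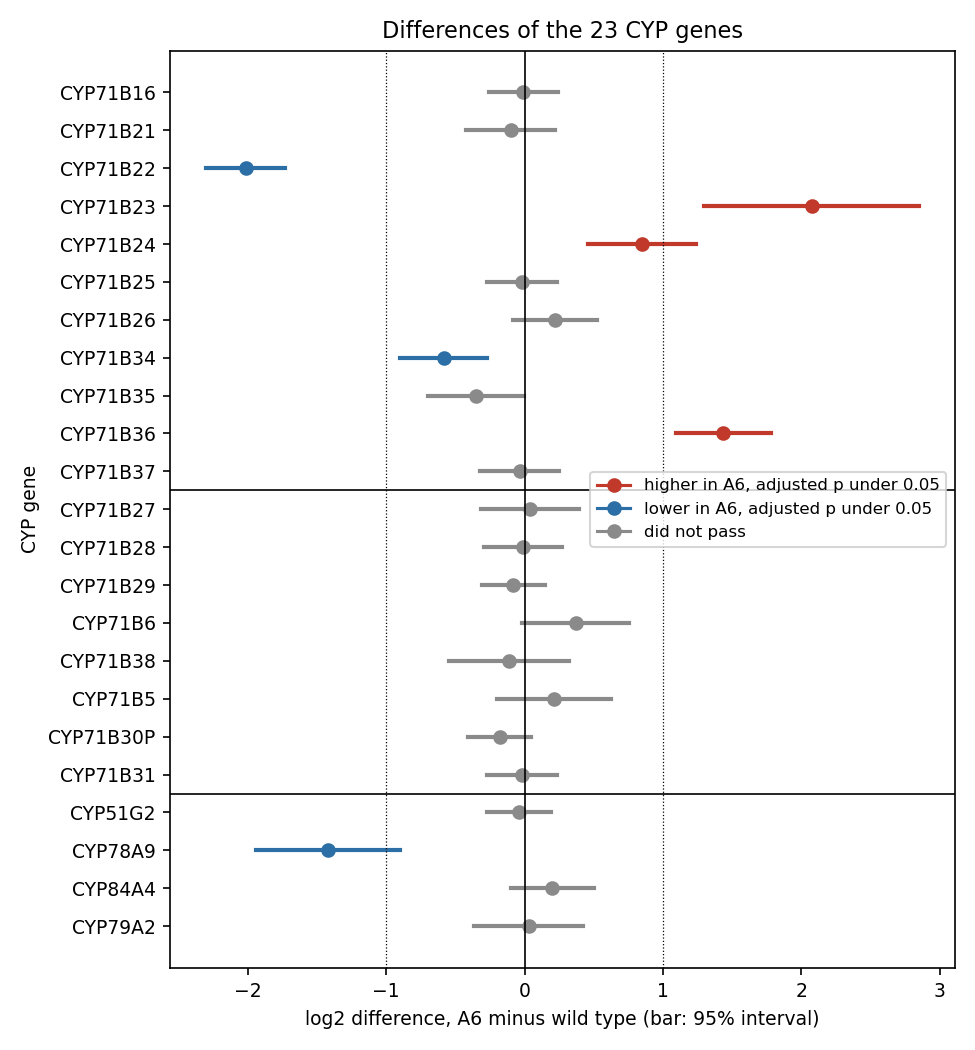
Log2 difference (A6 minus wild type) of each of the 23 CYP genes with its 95% interval, in the same 3 blocks as the map of values by array; dotted lines mark 2-fold. The 6 called genes range from -2.01 (CYP71B22) to 2.07 (CYP71B23), and the intervals of the 17 others lie between -0.70 and 0.76.

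The replicates contributed unevenly to these differences. In 4 of the 6 called CYP genes (CYP71B23, CYP71B24, CYP71B36 and CYP71B34) the A6 value nearest to wild type was that of replicate 3. Among all 2222 called probe sets, A6 replicate 3 was the nearest in 52.7%, against 25.4% for replicate 1 and 21.9% for replicate 2. On the wild-type side, replicate 1 was nearest to A6 in 3 of the 6, replicate 2 in 3 and replicate 3 in 0 (43.9%, 33.4% and 22.6% of all called probe sets). A6 replicate 3 and wild-type replicate 1 also had the highest hybridisation spike-ins, with means of 0.41 and 0.40, while the other A6 arrays were at -0.04 and 0.02 and the other wild-type arrays at -0.37 and -0.10. Without these 2 arrays all 6 genes kept their calls, and CYP71B35 passed too. That fit called 15.2% of all probe sets, against 9.77% with all 6 arrays.

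The 5 called CYP71B genes all lie in 1 run of tandem P450 genes on chromosome 3, from CYP71B16 (AT3G26150) to CYP71B37 (AT3G26330). In the RefSeq gene order the run holds 24 genes, 18 of them with a CYP symbol. Of these 18, the annotation paired 11 with a single-gene probe set. Of the 11, 3 rose, 2 fell and 6 did not pass, a called share of 45.5%, against 0 of the 8 CYP71B genes elsewhere in the genome and 9.77% of all probe sets. In 8 genes a count of 0 is near that background. These are counts from a small family chosen with the results known, and no test of the difference between them was made. The median absolute difference was 0.35 in the run, 0.10 in the other CYP71B genes and 0.15 over all probe sets.

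Flanking genes gave the local background. Among the 40 genes on each side of the run, 43 were measured, of which 2 rose and 2 fell. That is 9.3%, against 9.77% of all probe sets. Of the 25 measured before the run 0 passed, and of the 18 after it 4 did, a split that was not tested. These 4, named after their values were seen, were AT3G26440 (1.75), AT3G26450 (0.44), AT3G26490 (-0.88) and AT3G26580 (-0.76). They were not adjacent to the run: the nearest measured genes on either side, AT3G26140 and AT3G26350, had differences of -0.08 (SE 0.13) and 0.07 (SE 0.10). The median absolute difference of the flanking genes was 0.097.

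Among the 10 pairs of successive measured members, only CYP71B22 and CYP71B23 were both called and in opposite directions. The other adjacent pairs show how far CYP71B22, CYP71B36 and CYP71B34 stood from a neighbour that did not pass. CYP71B23 and CYP71B24 had no such measured gene directly beside them. CYP71B22 minus CYP71B21 was -1.13, -0.86 and -0.94 in A6, against 0.55, 1.18 and 1.08 in wild type. CYP71B36 minus CYP71B35 was 0.98, 1.21 and 0.52 in A6, against -1.04, -0.83 and -0.78 in wild type. CYP71B37 minus CYP71B36 was -0.72, -0.75 and -0.44 in A6, against 1.36, 0.48 and 0.66 in wild type. CYP71B35 minus CYP71B34 was -0.14, -0.07 and 0.16 in A6, against -0.16, -0.25 and -0.34 in wild type. The lines were apart in all 4 of these pairs, by the narrowest gap in the last. Each pair holds a called gene whose own lines were apart, so this largely follows from those calls. Lines were apart in 29% of all single probe sets, and pairs of other genes were not compared.

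**Figure D3:**
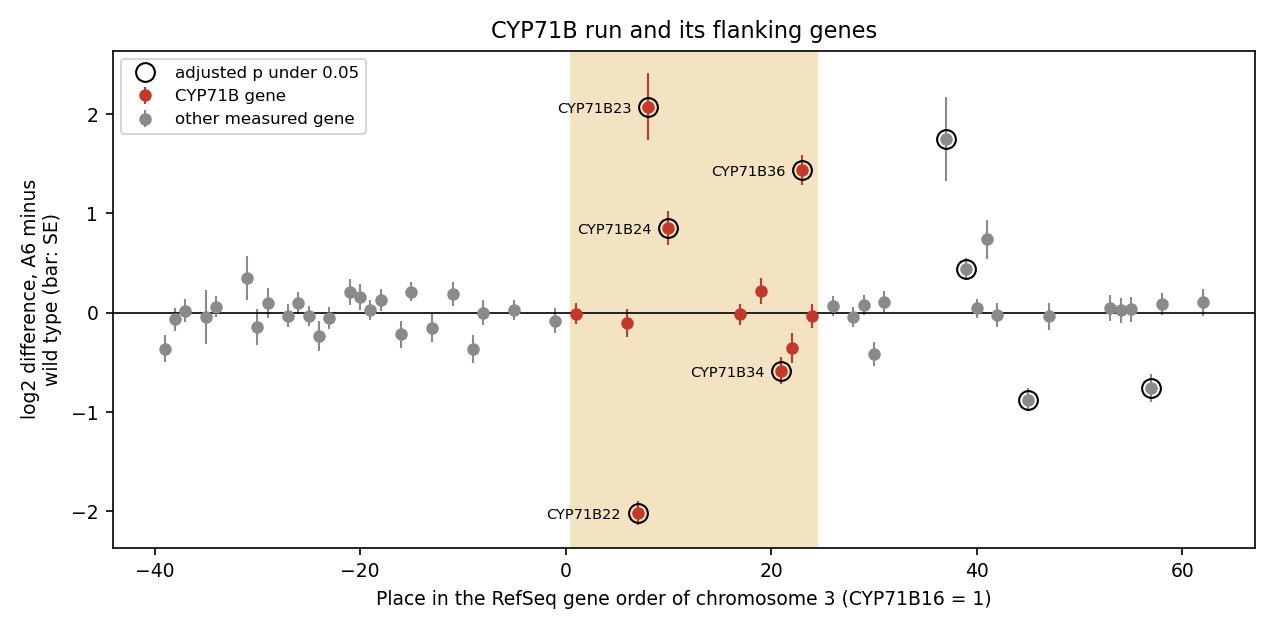
Log2 difference (A6 minus wild type, bars are SE) of every measured gene against its place in the RefSeq gene order of chromosome 3, where CYP71B16 is 1; the shaded band is the run of 24 genes. Red points are CYP71B genes, grey points other genes and black rings called genes; CYP71B22 at -2.01 and CYP71B23 at 2.07 stand side by side.

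The other 6 members of the run did not pass. CYP71B35 (AT3G26310) had -0.31, -0.45 and 0.04 in A6, against -0.04, 0.27 and 0.11 in wild type. Its lines overlapped only where A6 replicate 3 lay above wild-type replicate 1. Its difference was -0.35 (SE 0.15, adjusted p = 0.203), and it was the 1 member besides the 6 called whose unadjusted p was under 0.05 (7 in all). It passed with array weights (-0.47, adjusted p = 0.0252) and after leaving out the pair of arrays with high spike-ins (-0.57, adjusted p = 0.0222). Those fits called 20.6% and 15.2% of all probe sets, against 9.77% without these changes. CYP71B26 (AT3G26290) had 0.17, 0.28 and -0.06 in A6, against -0.26, 0.06 and -0.09 in wild type, with a difference of 0.22 (SE 0.13). CYP71B16, CYP71B21 (AT3G26190), CYP71B25 (AT3G26270) and CYP71B37 had differences between -0.10 and -0.01. Among these 4, single A6 values ran from -0.21 (CYP71B25) to 0.12 (CYP71B37), against -0.18 to 0.34 in wild type, both CYP71B21.

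The second run on chromosome 3 holds CYP71B5 (AT3G53280), CYP71B30P (AT3G53290) and CYP71B31 (AT3G53300), and 0 of these 3 passed. In 3 genes a count of 0 is near the 9.77% called over all probe sets. CYP71B30P, whose symbol marks it as a pseudogene although RefSeq types it as protein coding, had -0.04, -0.20 and -0.06 in A6, against 0.14, 0.04 and 0.05 in wild type. Its lines were apart, but the difference of -0.18 (SE 0.10, adjusted p = 0.325) did not pass. CYP71B5 had a difference of 0.21 (SE 0.18), with wild-type replicate 1 at -0.53 and the 5 other arrays between -0.004 and 0.25. CYP71B31, known to act on the monoterpenol linalool in flowers, had -0.02 (SE 0.11).

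On chromosome 1, CYP71B27 (AT1G13070), CYP71B28 (AT1G13090) and CYP71B29 (AT1G13100) had differences of 0.04 (SE 0.15), -0.01 (SE 0.12) and -0.08 (SE 0.10), and 0 of the 3 passed. This count too is near the 9.77% called over all probe sets. RefSeq types CYP71B27 as a transcribed pseudogene. Its values ran from -0.05 to 0.21 in A6 and from -0.20 to 0.35 in wild type, so that every A6 value fell within the wild-type range.

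The last CYP71B genes lie singly. CYP71B6 (AT2G24180), known to turn indole-3-acetonitrile into indole-3-carbaldehyde in the indolic defence pathway, had 0.32, 0.64 and -0.03 in A6, against -0.19, 0.03 and -0.03 in wild type. Its first 2 A6 values lay above all wild-type values and the third among them. The difference of 0.37 (SE 0.17, 95% interval -0.01 to 0.76, adjusted p = 0.224) was the largest positive one among the genes that did not pass. CYP71B38 (AT3G44250) had -0.11 (SE 0.19), with wild-type values from -0.21 to 0.50.

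Outside CYP71B, 3 of the 4 genes did not pass. Over all probe sets 9.77% were called, and 4 genes are too few to set against that share. CYP84A4 (AT5G04330), an enzyme of arabidopyrone synthesis from phenylpropanoids, had -0.02, 0.02 and 0.28 in A6, against 0.08, -0.25 and -0.15 in wild type, a difference of 0.20 (SE 0.13, adjusted p = 0.416). CYP79A2 (AT5G05260), which makes the oxime precursor of benzylglucosinolate from phenylalanine, had 0.06, -0.07 and 0.39 in A6, against 0.40, -0.06 and -0.06 in wild type. Its difference was 0.03 (SE 0.17), and 1 array of each line lay high. CYP51G2 (AT2G17330), a transcribed pseudogene related to the sterol demethylase gene, had -0.04 (SE 0.10).

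For the 17 genes that did not pass, the 95% intervals with all 6 arrays and no covariate all lay between -0.70 and 0.76, inside a 2-fold difference in either direction. The covariates shifted the estimates of several of these genes, and 0 of the 17 passed with either. The covariate with ubiquitin did not overlap between the lines and cannot be well separated from line. The shifted estimates are given without an SE, so their size is uncertain. With the actin and GAPDH covariate CYP71B35 had -0.65, CYP71B27 0.33 and CYP71B5 -0.07. With ubiquitin added CYP71B35 had -0.73, CYP71B27 0.58, CYP71B38 0.497, CYP84A4 0.47, CYP79A2 0.44, CYP71B5 -0.43, CYP71B21 0.37, CYP71B37 0.302 and CYP71B25 -0.22. Without a covariate, in 6 of the 17 the mean was higher in A6 and in 11 it was lower. Over all 22746 probe sets it was higher in 10251 and lower in 12495.

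Listed partners of the P450 enzymes were thinly covered. Of 77 P450 loci listed by known role, the annotation paired 2 with a single-gene probe set, CYP79A2 and CYP78A9. The P450 steps of hormone, lignin, sterol, carotenoid, cutin and wax synthesis are therefore not analysed here. This is a limit of the annotation, which lists no gene for 8730 probe sets, and the array may still hold probe sets for these loci. Of 11 redox partners 2 were measured, and 0 passed with limma (0 at an unadjusted p under 0.05). In 2 genes a count of 0 is near the 9.77% called over all probe sets. AT3G02280 (ATR3), a flavin-containing reductase, had -0.13, -0.01 and 0.01 in A6, against -0.03, 0.43 and 0.39 in wild type, a difference of -0.31 (SE 0.14, adjusted p = 0.233). It passed without wild-type replicate 1 (-0.45, adjusted p = 0.023), after leaving out the pair of high spike-in arrays (-0.48, adjusted p = 0.0304) and with array weights (-0.45, adjusted p = 0.0158). Those fits called 15.3%, 15.2% and 20.6% of all probe sets, against 9.77% without these changes. With the covariate ATR3 had -0.57 (adjusted p = 0.145), and with ubiquitin added -0.80 (adjusted p = 0.0936). AT5G20080 (CBR2), a mitochondrial NADH-cytochrome b5 reductase, had -0.10 (SE 0.14, adjusted p = 0.762), and 0.08 and 0.18 with the covariates.

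Of 47 listed enzymes and regulators around P450 steps 4 were measured, 1 rose and 3 did not pass. Over all probe sets 9.77% were called, and 4 genes are too few to set against that share. HCT, the acyltransferase that makes the substrate of a P450 of lignin synthesis, was named after its value was seen: it had 0.20, 0.25 and 0.25 in A6, against -0.21, -0.20 and -0.37 in wild type. The difference was 0.49 (SE 0.10, adjusted p = 0.0196), and it was lost without any single array other than wild-type replicate 1 (adjusted p 0.0538 to 0.0794). With the covariate its difference was 0.48 (adjusted p = 0.172), and with ubiquitin added 0.51 (adjusted p = 0.221). UGT74B1 and BCAT4, of glucosinolate synthesis, had -0.17 (SE 0.09) and 0.15 (SE 0.16), and DFR, of anthocyanin synthesis, 0.22 (SE 0.14).

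Of 27 listed markers of root, stomatal lineage, vascular tissue, meristem, seed, trichome and senescence, 7 were measured and 0 passed with limma (0 at an unadjusted p under 0.05). In 7 genes a count of 0 is near the 9.77% called over all probe sets. The differences of these markers lay between -0.23 (SWEET11, a phloem sugar transporter) and 0.15 (FMA, a stomatal lineage regulator). With so few, the makeup of the leaves was not tested further. CYP718, a P450 gene without a subfamily letter and so outside the rule, had a difference of -0.12 (SE 0.18, adjusted p = 0.786), and 0.06 and 0.496 with the covariates.

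**Figure D4:**
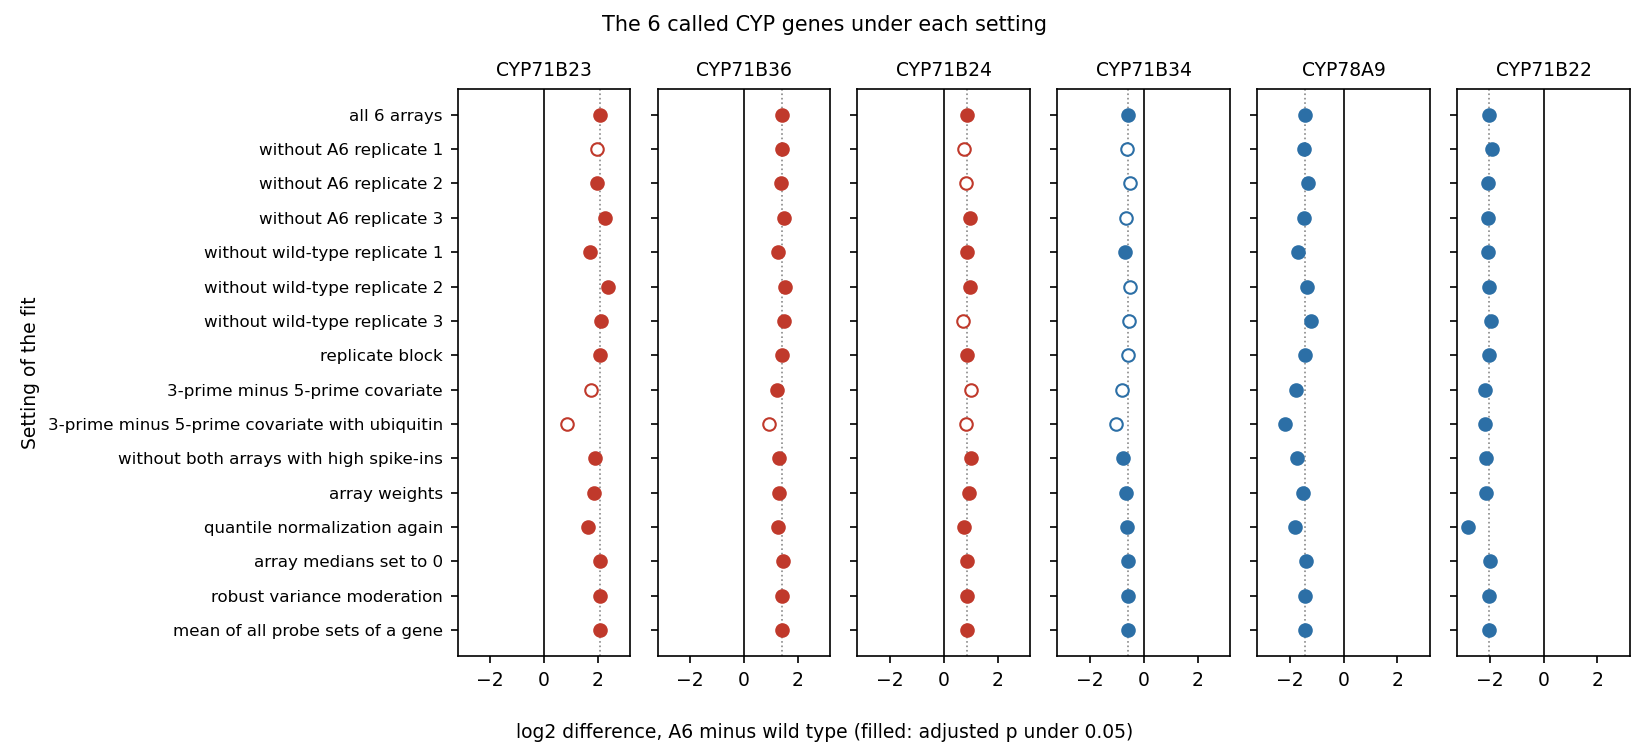
Log2 difference (A6 minus wild type) of each of the 6 called CYP genes with all 6 arrays and under each alternative fit; filled points have an adjusted p under 0.05 and open points do not. The sign of all 6 is the same in every fit. In 3 fits (replicate block, robust moderation and mean of probe sets) each difference stays as it was by construction. Leaving out or weighting arrays could not change a sign either, since the lines are apart in all 6 genes. CYP71B22 and CYP78A9 are filled throughout, while CYP71B34 is open in most fits that leave out an array.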

How the data were processed

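The deposited values of 6 Affymetrix ATH1 arrays, 3 of A6 and 3 of wild type, were used. Per the submitters' processing notes the authors made them with RMA (which corrects the background, quantile-normalizes the arrays and summarises probes). The values deposited by the authors are taken as log2 because RMA gives log2; the log base is not given in the sources used here. Each probe set's median across arrays is 0 within 5e-07, which shows them to be centred, so probe sets could not be filtered by level, and the centring step itself is not described. The number of arrays limits the precision. Of 22810 probe sets, 64 controls were left out of the tests. Genes were named from the platform annotation (13513 probe sets with 1 gene, 503 with several, 8730 not listed), and loci and gene order from RefSeq TAIR10.1, used for names and order only, with no coordinates. The 2 probe sets that name a CYP gene together with another gene were left out. All 23 member probe sets carry the plain suffix of sets designed for 1 transcript; whether their probes also bind related tandem copies was not tested.

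Two-sided tests between the lines used limma 3.58.1 (lmFit, then eBayes; R 4.3.3) on 22746 probe sets, with no term besides line and with Benjamini-Hochberg adjustment. The fit was tested on simulated data. Alternatives left out each array, added a replicate block or a control-based covariate, left out both arrays with high spike-ins, used array weights or robust moderation, or renormalized the arrays. The second quantile normalization acted on centred values, so it also evened the spread of the arrays, whose SD ran from 0.22 to 0.34. Genes named are all members, plus the redox partners measured; single exceptions are stated. The members and lists were chosen with earlier results of these data known.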

Additional observations from a re-analysis of the deposited data

How the results depend on the processing

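All 6 called CYP genes kept their sign in the 15 alternative fits, of which 3 (replicate block, robust moderation and mean of a gene's probe sets, since each member has 1) leave the differences unchanged by construction. Fits that leave out or weight arrays could not change a sign either, because the lines were apart in all 6 genes. For these fits only the sizes and calls carry information. The number past the threshold moved. Rises numbered 1 to 3 and falls 2 to 3 when 1 array was left out, and the share of all probe sets called ranged over those fits from 3.37% to 15.3%. With the actin and GAPDH 3' minus 5' difference as a covariate 1 gene rose (CYP71B36) and 2 fell, where 2.16% of all probe sets were called. With the ubiquitin pairs added to it, an alternative chosen after seeing the data, 0 rose and 2 fell (CYP71B22 and CYP78A9), where 1.27% were called; the cause was not tested. Falls numbered 4 with array weights and when the arrays with high spike-ins were left out, with CYP71B35 added. These fits called 20.6% and 15.2% of all probe sets, against 9.77% without these changes. Deviations from the line means correlated at -0.13, 0.18 and -0.16 between same-numbered arrays. Over all pairings they ran from -0.29 (A6 replicate 3 with wild-type replicate 2) to 0.30 (A6 replicate 3 with wild-type replicate 1). The latter are the arrays with high spike-ins. With 3 arrays per line these values cannot settle whether replicate numbers pair the arrays. The replicate block gave 3 rises and 2 falls, where 6.71% of all probe sets were called, against 9.77% without it. In that fit CYP71B34 did not pass (limma adjusted p = 0.0749) and HCT neither (0.0598). A filter on low values was not possible with centred values, and the log base changes no test.

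Genes close to 0 changed sign. When 1 array was left out, the log2 differences ranged over -0.075 to 0.197 (CYP71B27), -0.101 to 0.186 (CYP79A2), -0.072 to 0.055 (CYP71B16), -0.068 to 0.084 (CYP71B28), -0.0697 to 0.047 (CYP71B31), -0.072 to 0.056 (CYP71B25), -0.106 to 0.074 (CYP71B37), -0.079 to 0.012 (CYP51G2), -0.227 to 0.031 (CYP71B21), -0.279 to 0.072 (CYP71B38), -0.24 to 0.011 (AT5G20080) and -0.246 to 0.086 (CYP718). The actin and GAPDH covariate gave -0.067 for CYP71B5, 0.058 for CYP71B28, 0.059 for CYP71B37, 0.0795 for CYP71B21, 0.043 for CYP71B38, 0.083 for AT5G20080 and 0.064 for CYP718. Adding ubiquitin gave -0.027 for CYP71B26, -0.429 for CYP71B5, 0.041 for CYP71B16, 0.302 for CYP71B37, 0.058 for CYP51G2, 0.0049 for CYP71B29, 0.373 for CYP71B21, 0.497 for CYP71B38, 0.178 for AT5G20080 and 0.496 for CYP718. Leaving out the high spike-in arrays gave 0.027 for CYP71B28, 0.027 for CYP71B37, 0.0025 for CYP71B21 and 0.077 for AT5G20080. Array weights gave 0.00071 for CYP71B16, 0.031 for CYP71B28 and 0.0027 for CYP71B37, a second quantile normalization 0.0093 for CYP71B16 and 0.0018 for CYP71B28, and array medians set to 0 0.0052 for CYP71B16 and 0.0033 for CYP71B28. None of these values passed with limma.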
